A study of Homo sapiens with 6 samples.

Results

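The proteasome genes described here are the rows of the gene table whose symbol begins with PSMA to PSMG and a number. The table held 47 of them among 17013 genes, and 45 of the 47 were abundant enough to test among 12819 genes. RNA came from Y79 cells, a human retinoblastoma cell line with MYCN amplification that is kept as a suspension culture. One group carried a short hairpin RNA against MYCN, a MYC-family transcription factor that drives growth and protein synthesis, and the other group carried a control hairpin. Both groups were transduced, their genotype was otherwise that of the line, and each held 3 libraries from poly(A)-selected RNA, described by the submitters as independent replicates and labelled as 1 batch. The sources used here do not give the number and sequences of the hairpins or the time of harvest, so hairpins could not be compared with each other. PSMB8, PSMB11 and PSMA8 had no row with values under these symbols, so they could not be assessed.

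The proteasome is the large protease of the cytosol and nucleus that degrades proteins tagged with ubiquitin. Its barrel, the core particle, is built from rings of alpha subunits (PSMA), which gate the entrance, and rings of beta subunits (PSMB), of which PSMB5, PSMB6 and PSMB7 cut peptide bonds. A regulatory particle caps the barrel: its base of ATPases (PSMC) unfolds the substrate, and its lid (most PSMD genes) removes ubiquitin. Activators (PSME) can replace that cap, PSMF1 binds the barrel as an inhibitor, and the PSMG chaperones pair up to assemble the alpha ring. Retinal precursor and tumour cells depend on this system for the turnover of cell cycle regulators and transcription factors, MYCN itself included.

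The library totals of deposited estimated counts were 15762707, 15509106 and 15490263 for MYCN hairpin libraries 1, 2 and 3, against 16078416, 15975017 and 15515994 for control hairpin libraries 1, 2 and 3. Levels are given as CPM, a gene's count relative to its library's total, after scaling by trimmed mean of M-values (TMM) factors. A gene is said to have risen or fallen when the quasi-likelihood test of edgeR gave a Benjamini-Hochberg adjusted p under 0.05 over all tested genes. MYCN itself measured 2413, 2284 and 2195 CPM with its hairpin, against 3046, 3128 and 2876 CPM with the control hairpin. The groups did not overlap, and MYCN fell by a log2 fold change of -0.39 ± 0.0432 (SE, adjusted p = 8.03e-11), so the transcript stayed abundant. Of 6 markers of retinoblastoma and photoreceptor precursors, 6 reached 1 CPM in every library, and they summed to 1410 to 1460 CPM with the MYCN hairpin and 1920 to 2010 CPM with the control hairpin. Of 4 Müller glia markers, 3 reached that level, with sums of 1170 to 1200 CPM with the MYCN hairpin and 1150 to 1190 CPM with the control hairpin. None of 4 blood and microglia markers did, with sums of 0.833 to 1.34 CPM with the MYCN hairpin and 1.18 to 1.53 CPM with the control hairpin. None of the 3 fibroblast markers in the table did either, with sums of 4.22 to 5.3 CPM with the MYCN hairpin and 1.51 to 1.59 CPM with the control hairpin. Of 4 pigment epithelium markers 1 did, TYRP1 was at 0 in all 6 libraries, and the sums were 11 to 12.7 CPM with the MYCN hairpin and 3.33 to 3.53 CPM with the control hairpin. The part of these shifts in the proteasome values was not tested, and in bulk RNA fewer cells of a type and less RNA per cell cannot be told apart.

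Proteasome transcripts were mostly modestly lower with the MYCN hairpin under TMM scaling, with a few members that moved much further than the rest. Of the 45 tested members, 28 fell (62.2%), 7 rose (15.6%) and 10 did not pass the test, whereas 37.9% of all tested genes fell, 38.0% rose and 75.8% passed in either direction. The values of the groups did not overlap for 31 of the 45 members, against 76.8% of all tested genes. Only PSMD14, PSMB10, PSME3 and PSMG4 fell by at least 1.5-fold, which 14.3% of all tested genes did, and 0 members rose by that much, against 17.8% of all tested genes. The median log2 fold change of the members was -0.151, that of all tested genes was 0.00458, and the middle 50% of members spanned 0.259, against 0.771 for all tested genes.

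This direction depends on how libraries are scaled. With library sizes alone the median of all tested genes moves up by 0.182 on the log2 scale, and 12 members fell and 17 rose, against 26.1% of all tested genes that fell and 51.5% that rose under that scaling. Of the 28 members that fell with TMM factors, 15 did not pass the test with library sizes alone, and PSMA4 passed it as a rise (adjusted p = 0.0243). The member median lay 0.156 below the median of all genes, and 35 of the 45 members lay below it. A change of scaling shifts nearly all genes alike, so these distances (0.155 with library sizes alone) cannot tell the scalings apart. Proteasome genes are abundant, with a median of 130 CPM, and among the 2469 tested genes of like abundance (67.5 to 165 CPM) 46.0% fell and 36.1% rose, with a median of -0.061. Without control hairpin library 1 the members that rose numbered 4 in place of 7.

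**Figure D1:**
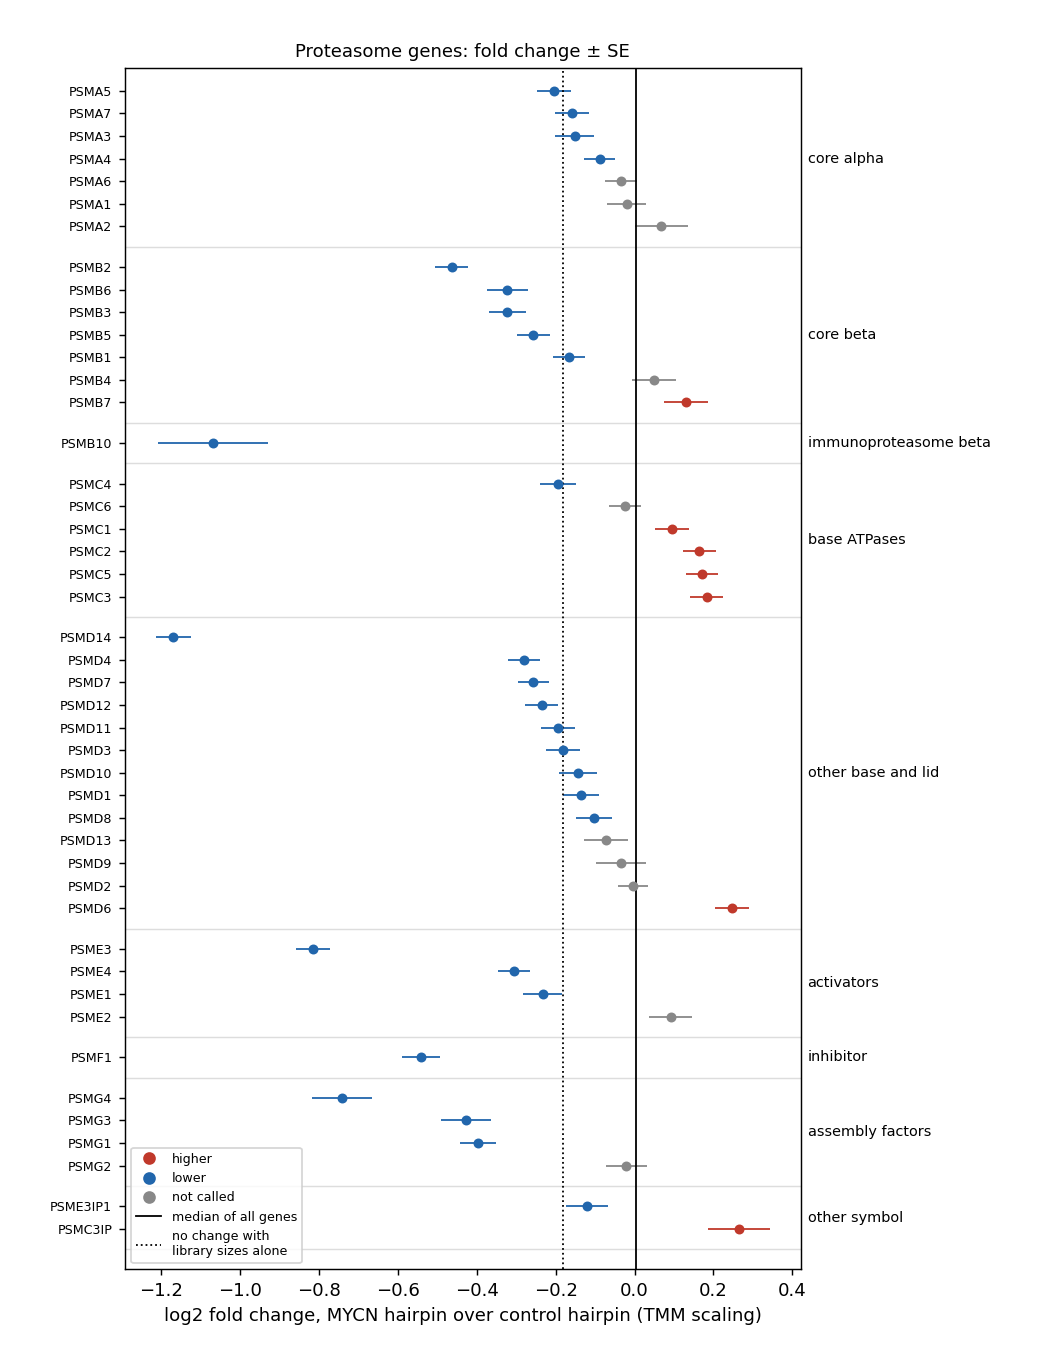
Log2 fold change (MYCN hairpin over control hairpin, TMM scaling) of the 45 tested proteasome genes, grouped by role; points are fitted values, bars are ± 1 SE, and colour gives the result of the test. The solid line marks the median of all tested genes and the dotted line the value at which a gene would show no change with library sizes alone, so points between the lines change sign under that scaling. PSMD14, PSMB10, PSME3 and PSMG4 lie farthest to the left, and 4 of the 6 base ATPases lie to the right of the solid line as higher.

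The sequences shown here are those that bear on the targeted factor, since MYC-family proteins bind the E-box CACGTG, and on the transcription of proteasome genes in general. RefSeq start regions (GRCh38.p14, 250 bases before to 50 after the start) were matched for 41 of the 47 members and searched on both strands for CACGTG, for TGACNNNGC, the core of the antioxidant response element bound by NFE2L1 and NFE2L2, and for CCAAT, bound by NF-Y. The E-box lay in 4 of 41 members (9.76%), against 10.2% of the 10352 start regions of tested genes and 7.43% of all 27305. The 4 members were PSME3, PSMB3, PSMD9 and PSME3IP1, and their sites began at positions -42, -238, -131 and -103 from the start. Any further start regions of a gene were not searched. The region used for PSME3 lies inside the annotated gene and opens within an exon. Each is printed in a window of 30 bases on the gene's strand, with the E-box in capitals, for PSME3 (chr17:42833343-42833372, plus strand), PSMB3 (chr17:38752491-38752520, plus), PSMD9 (chr12:121888647-121888676, plus) and PSME3IP1 (chr16:57186202-57186231, minus).
PSME3: ggctgcgcagcgCACGTGcacagcctcgca
PSMB3: gtttcaccagccCACGTGcgcgcaggctcc
PSMD9: tcaccacaggcgCACGTGttccggcagggc
PSME3IP1: caaaaatcgtgtCACGTGatcagcgggacc
These 4 genes differed in outcome: PSME3, PSMB3 and PSME3IP1 fell by 0.81, 0.32 and 0.12 on the log2 scale, and PSMD9 had a log2 fold change of -0.03 that did not pass the test (adjusted p = 0.634). With library sizes alone PSME3IP1 had a positive log2 fold change of 0.06, and PSMD9 rose by 0.15 (adjusted p = 0.0386). The 4 members with an E-box had a median of -0.221 and the 35 without one a median of -0.135, values that rest on few genes and are a description of these windows.

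TGACNNNGC lay in 13 of 41 members (31.7%), against 14.8% of tested and 13.6% of all start regions, and CCAAT in 20 of 41 (48.8%), against 36.8% and 35.7%. The median log2 fold change was -0.194 in the 11 tested members with TGACNNNGC and -0.0954 in the 28 without, and -0.151 in the 19 with CCAAT and -0.0806 in the 20 without. The region before PSMB3 (chr17:38752491-38752735, plus strand, ending at the first annotated exon) is shown because it carries all 3 motifs, and the region before PSMD9 (chr12:121888540-121888730, plus strand) because it has the E-box and TGACNNNGC in a gene whose change did not pass the test. Capitals mark the motifs on either strand.
PSMB3 upstream: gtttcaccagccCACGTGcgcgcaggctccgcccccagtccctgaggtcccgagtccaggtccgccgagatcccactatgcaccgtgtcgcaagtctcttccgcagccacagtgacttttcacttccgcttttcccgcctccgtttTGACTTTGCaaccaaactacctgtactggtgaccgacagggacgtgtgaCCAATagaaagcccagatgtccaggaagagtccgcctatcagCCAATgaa
PSMD9 upstream: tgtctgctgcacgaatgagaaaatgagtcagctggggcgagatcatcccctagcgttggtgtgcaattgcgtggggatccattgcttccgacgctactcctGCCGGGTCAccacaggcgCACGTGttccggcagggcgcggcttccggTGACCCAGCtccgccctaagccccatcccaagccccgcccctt
The start region searched for PSMD14, the member that fell most, lies inside the annotated gene and opens within an exon. It has neither of the first 2 motifs and 2 overlapping CCAAT matches, one on each strand, that begin at -48 and -45. The first is in capitals in the window chr2:161308365-161308394 (plus strand).
PSMD14: tctccgtcgtctCCAATtggccgtcgggga

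The alpha subunits of the core changed little. Of 7 tested, 4 fell and 0 rose with TMM scaling, under which 37.9% of all tested genes fell and 38.0% rose. With library sizes alone 0 fell and 4 rose, against 26.1% and 51.5% of all tested genes. With TMM scaling 6 of the 7 lay below the median of all genes. The median of the 7 was -0.0885, with a range of -0.204 to 0.0683. PSMA5 measured 108.4, 108.0 and 115.5 CPM with the MYCN hairpin, against 122.9, 132.9 and 126.5 CPM with the control hairpin. PSMA5, an alpha ring subunit on chromosome 1, thus fell by 0.20 ± 0.0438 on the log2 scale (SE, adjusted p = 6.28e-05) without overlap between the groups, and did not pass the test with library sizes alone (-0.02). PSMA7 measured 133.0, 129.2 and 137.4 CPM with the MYCN hairpin, against 151.4, 153.3 and 141.1 CPM with the control hairpin, and its log2 fold change was -0.16 ± 0.0423 (adjusted p = 0.000935). Its groups did not overlap either, but control library 3 stood closer to the MYCN hairpin libraries than the other controls did. PSMA3 and PSMA4 fell by 0.15 and 0.09 on the log2 scale, and with library sizes alone PSMA3, PSMA4 and PSMA7 had positive values of 0.03, 0.09 and 0.02. Under that scaling PSMA4 passed the test as a rise (adjusted p = 0.0243), and PSMA3 and PSMA7 did not pass. PSMA1 (-0.02), PSMA6 (-0.03) and PSMA2 (0.07) did not pass the test with TMM scaling, and rose with library sizes alone (0.16, 0.15 and 0.25).

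Among the beta subunits the values were more spread out than among the alpha subunits. Of 7 constitutive members, 5 fell and 1 rose with TMM scaling, against 37.9% and 38.0% of all tested genes. With library sizes alone 3 fell and 2 rose, against 26.1% and 51.5% of all tested genes. The median of the 7 was -0.256 with TMM scaling, with a range of -0.464 to 0.13. PSMB2, a structural subunit with no protease activity, measured 145.1, 146.7 and 153.4 CPM with the MYCN hairpin, against 197.3, 214.2 and 202.4 CPM with the control hairpin. It had the lowest value of the constitutive beta genes, at -0.46 ± 0.0408 (SE, adjusted p = 1.6e-13), with a clear gap between the groups. PSMB3, also structural, measured 78.96, 73.52 and 74.8 CPM with the MYCN hairpin, against 98.34, 94.36 and 91.37 CPM with the control hairpin (log2 fold change -0.32 ± 0.0472, adjusted p = 7.58e-08), again without overlap.

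The 3 catalytic subunits did not move alike. PSMB5, which carries the chymotrypsin-like activity that proteasome inhibitor drugs block, measured 133.2, 128.7 and 141.2 CPM with the MYCN hairpin, against 158.7, 160.7 and 162.2 CPM with the control hairpin. PSMB6, the caspase-like subunit, measured 62.3, 56.39 and 59.3 CPM with the MYCN hairpin, against 74.57, 78.36 and 69.53 CPM with the control hairpin. Both fell without overlap between the groups, PSMB5 by 0.26 ± 0.0415 and PSMB6 by 0.32 ± 0.0524 on the log2 scale (SE, adjusted p = 5.71e-07 and 6.39e-07). With library sizes alone PSMB5 stood at -0.07 and did not pass the test (adjusted p = 0.0848). PSMB7, the trypsin-like subunit, measured 192.3, 186.8 and 197.6 CPM with the MYCN hairpin, against 169.0, 196.7 and 161.0 CPM with the control hairpin. Control library 2 lay within the range of the MYCN hairpin libraries, and the rise of PSMB7 (0.13 ± 0.056, adjusted p = 0.0432) was lost when any 1 library other than control library 2 was left out, with values of 0.07 to 0.15. PSMB1 fell by 0.17 on the log2 scale with TMM scaling and stood at 0.02 with library sizes alone. PSMB4 (0.05, adjusted p = 0.445) did not pass the test, and its control libraries, at 263.0, 282.0 and 227.8 CPM, spanned the MYCN hairpin libraries at 266.2, 266.4 and 267.3 CPM.

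Of the inducible beta subunits, PSMB9 was nearly undetected, PSMB10 was low and PSMB8 could not be assessed. PSMB9 (chromosome 6, 32844136 to 32859585, in the major histocompatibility region) had 1 count in MYCN hairpin library 2 and 0 in the other 5 libraries. A count of 0 allows up to 3 counts, or 0.178 to 0.208 CPM in these libraries. PSMB10, which takes the place of PSMB7 in immunoproteasomes, had 65, 53 and 62 counts with the MYCN hairpin, against 119, 122 and 98 counts with the control hairpin. These correspond to 3.87, 3.2 and 3.78 CPM with the MYCN hairpin and 7.81, 8.14 and 6.79 CPM with the control hairpin, and every MYCN hairpin library lay below every control library. PSMB10 (chromosome 16, 67934502 to 67937087, minus strand) fell 2.1-fold, with a log2 fold change of -1.07 ± 0.139 (SE, adjusted p = 5.11e-09) and of -0.89 with library sizes alone. Per kilobase of transcript its level was 1.51% of that of PSMB7 with the MYCN hairpin and 3.47% with the control hairpin. The annotated gene AC040162.1 covers 644 of its exon bases on the same strand.

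Most of the base ATPases, the ring that pulls substrates into the barrel, were slightly higher. Of 6, 4 rose, 1 fell and 1 did not pass the test with TMM scaling, with a median of 0.13. Under TMM scaling 38.0% of all tested genes rose and 37.9% fell. With library sizes alone, under which 51.5% of all tested genes rose and 26.1% fell, 5 of the ATPases rose and 0 fell. PSMC3 measured 188.1, 173.7 and 188.2 CPM with the MYCN hairpin, against 165.4, 164.1 and 154.8 CPM with the control hairpin. PSMC5 measured 182.3, 185.7 and 187.0 CPM with the MYCN hairpin, against 155.5, 173.2 and 164.5 CPM with the control hairpin. Neither gene's groups overlapped, and their rises were small, at 0.18 ± 0.0415 for PSMC3 and 0.17 ± 0.0411 for PSMC5 on the log2 scale (SE, adjusted p = 0.000132 and 0.000291). PSMC2 (0.16, adjusted p = 0.000632) and PSMC1 (0.10, adjusted p = 0.0386) also rose. PSMC1 has 13 named pseudogenes and shares 4671 exon bases with NRDE2 on the opposite strand, where NRDE2 rose by 0.29, and without control library 1 PSMC1 did not pass the test (adjusted p = 0.334). PSMC5 shares 874 exon bases with FTSJ3, which fell by 0.44. PSMC4, another ATPase of the ring, measured 76.88, 76.72 and 79.56 CPM with the MYCN hairpin, against 88.36, 90.83 and 87.42 CPM with the control hairpin, and fell by 0.19 ± 0.046 on the log2 scale (adjusted p = 0.000243). Its groups did not overlap, and with library sizes alone its value was -0.01. PSMC6 stood at -0.02 and did not pass the test.

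**Figure D2:**
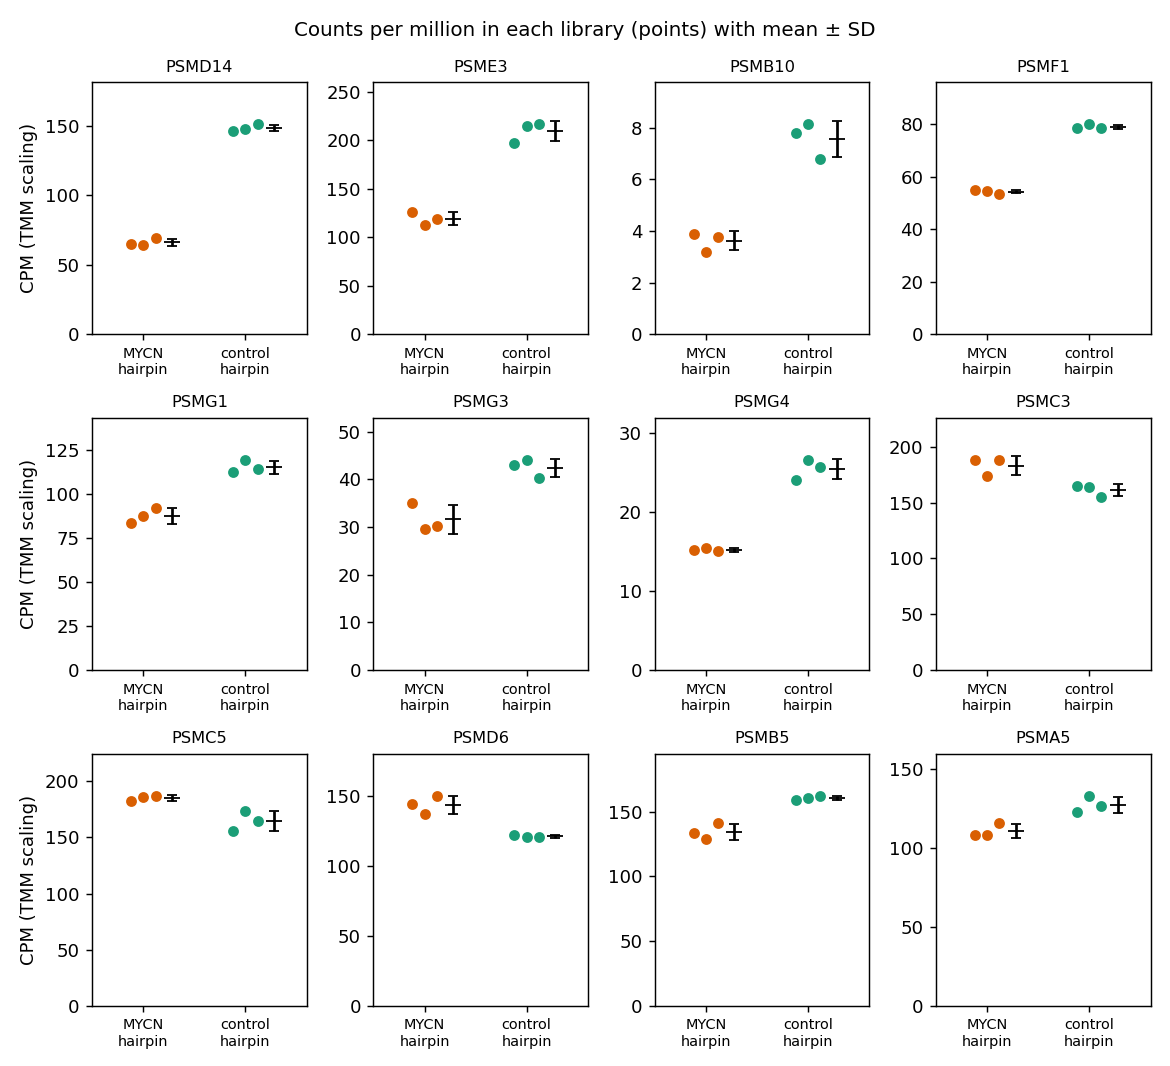
CPM (TMM scaling, axes from 0) of 12 proteasome genes in each library: points are libraries, with the MYCN hairpin on the left and the control hairpin on the right of each panel, and bars are the mean ± SD of 3. All 3 MYCN hairpin libraries lie below all 3 control libraries for PSMD14, PSME3, PSMB10, PSMF1, PSMG1, PSMG3, PSMG4, PSMB5 and PSMA5, and above them for PSMC3, PSMC5 and PSMD6.

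PSMD14 had the lowest fold change of the 19 tested PSMC and PSMD genes. It encodes the metalloprotease of the lid (RPN11 in yeast) that cuts ubiquitin chains off a substrate as it enters the barrel. PSMD14 (chromosome 2, 161308038 to 161411717, plus strand) measured 64.68, 64.36 and 69.25 CPM with the MYCN hairpin, against 146.6, 148.0 and 151.1 CPM with the control hairpin. The spread within each group was small beside the gap between them (66.1 ± 2.73 with the MYCN hairpin and 148.6 ± 2.32 with the control hairpin, SD, n = 3 each). It fell 2.25-fold (log2 fold change -1.17 ± 0.0448, SE, adjusted p = 1.7e-25), and 463 of the tested genes (3.61%) had a lower value. The counts of PSMD14 were set against the summed counts of the other regulatory particle genes, here PSMC1 to PSMC6 and the other PSMD genes. They equalled 2.73%, 2.74% and 2.84% of that sum in the MYCN hairpin libraries, against 6.08%, 5.93% and 6.12% in the control libraries. No scaling between libraries touches this ratio. The annotated antisense RNA AC009299.3 shares 159 of its exon bases.

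The other base and lid subunits changed far less. Without PSMD14, 12 were tested, of which 8 fell, 1 rose and 3 did not pass the test with TMM scaling. With library sizes alone 1 fell and 3 rose. Of all tested genes, 37.9% fell and 38.0% rose with TMM scaling, and 26.1% and 51.5% with library sizes alone. Of the 12, 11 lay below the median of all genes, and their own median was -0.139, with a range of -0.28 to 0.247. PSMD4, a ubiquitin receptor, measured 181.4, 178.9 and 182.4 CPM with the MYCN hairpin, against 218.3, 231.1 and 209.2 CPM with the control hairpin, and fell by 0.28 ± 0.0402 on the log2 scale (SE, adjusted p = 4.92e-08). The control libraries were higher without overlap and more spread out. PSMD6 was the exception, at 143.8, 136.7 and 149.7 CPM with the MYCN hairpin, against 121.8, 120.2 and 120.4 CPM with the control hairpin. This lid subunit rose by 0.25 ± 0.0423 on the log2 scale (adjusted p = 1.66e-06) without overlap, and it shares 441 and 352 exon bases with the antisense RNAs PSMD6-AS1 and PSMD6-AS2. PSMD7, the inactive partner that pairs with PSMD14 in the lid, fell by 0.26 on the log2 scale. The lid scaffold subunits PSMD12, PSMD11, PSMD3 and PSMD8 fell by 0.24, 0.19, 0.18 and 0.10, the base assembly chaperone PSMD10 fell by 0.14, and the base scaffold subunit PSMD1 fell by 0.14. Of these, PSMD3, PSMD10, PSMD1 and PSMD8 had positive values (0.00035 to 0.08) with library sizes alone, and PSMD7, PSMD12 and PSMD11, at -0.07, -0.05 and -0.01, did not pass the test under that scaling. The lid subunit PSMD13, the chaperone PSMD9 and the base scaffold PSMD2 did not pass the test, at -0.07, -0.03 and -0.0037, and had positive values (0.11 to 0.18) with library sizes alone. Under that scaling PSMD9 and PSMD2 passed the test as rises (adjusted p = 0.0386 and 3.74e-05), and PSMD13 did not pass. PSMD5, an assembly chaperone of the base, was too low to test, with 7, 2 and 3 counts with the MYCN hairpin and 0, 5 and 6 counts with the control hairpin. The PSMC1 to PSMC6 and PSMD genes together, chaperones included, had a median of -0.102, and of -0.0875 without PSMD14. Regulatory particle genes with other symbols are not in these medians. Of those, ADRM1 and SEM1 rose by 0.39 and 0.20 on the log2 scale (adjusted p = 9.23e-08 and 0.000562), and UCHL5 fell by 0.87.

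Among the activators, PSME3 fell most. PSME3 encodes PA28 gamma, a nuclear ring that opens the core particle without ATP and ubiquitin. PSME3 (chromosome 17, 42824385 to 42843758, plus strand) measured 125.9, 113.2 and 119.0 CPM with the MYCN hairpin, against 197.7, 215.3 and 216.7 CPM with the control hairpin, and the groups were far apart. It fell 1.76-fold (log2 fold change -0.81 ± 0.0437, SE, adjusted p = 2.4e-20), and 8.28% of tested genes had a lower value. BECN1, which shares 300 exon bases with PSME3 on the opposite strand, fell by 0.37 on the log2 scale.

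PSME1 and PSME2 encode the alternating subunits of PA28, the interferon-inducible ring. PSME1 measured 60.22, 62.91 and 63.02 CPM with the MYCN hairpin, against 69.45, 75.16 and 74.18 CPM with the control hairpin. PSME2 measured 59.27, 59.41 and 60.89 CPM with the MYCN hairpin, against 57.7, 59.82 and 50.89 CPM with the control hairpin. PSME1 fell by 0.23 ± 0.0499 on the log2 scale (SE, adjusted p = 6.19e-05) without overlap, though not with library sizes alone (-0.05, adjusted p = 0.343), whereas PSME2 (0.09 ± 0.0549, adjusted p = 0.128) overlapped and did not pass the test, and its fold change was the higher of the pair. PSME2 shares 216 exon bases with RNF31, which rose by 0.36, and 2 pseudogenes carry its name. Counts of PSME3 per count of PSME1 and PSME2 together were 1.05, 0.925 and 0.96 in the MYCN hairpin libraries, against 1.55, 1.6 and 1.73 in the control libraries. PSME4, the monomeric activator PA200, measured 144.1, 143.9 and 152.0 CPM with the MYCN hairpin, against 177.9, 178.6 and 187.5 CPM with the control hairpin, and fell by 0.31 ± 0.0404 on the log2 scale (adjusted p = 7.75e-09). Of the 4 activators 3 fell and 0 rose with TMM scaling, against 37.9% and 38.0% of all tested genes. With library sizes alone 2 fell and 1, PSME2, rose, against 26.1% and 51.5% of all tested genes.

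PSMF1, also called PI31, a protein that inhibits the isolated core particle, fell as well. PSMF1 (chromosome 20, 1113263 to 1189415, plus strand) measured 54.74, 54.4 and 53.51 CPM with the MYCN hairpin, against 78.38, 79.89 and 78.41 CPM with the control hairpin. Both groups were tight (54.2 ± 0.639 CPM with the MYCN hairpin and 78.9 ± 0.865 CPM with the control hairpin, SD, n = 3 each), and the log2 fold change was -0.54 ± 0.0488 (SE, adjusted p = 3.19e-13). The counts of PSMF1 equalled 2.68%, 2.71% and 2.56% of the summed counts of the core particle genes with the MYCN hairpin, against 3.64%, 3.49% and 3.59% with the control hairpin.

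Of the 4 assembly chaperones, 3 fell and 0 rose with TMM scaling, against 37.9% and 38.0% of all tested genes. With library sizes alone 3 fell and PSMG2 rose, against 26.1% and 51.5% of all tested genes. PSMG1 and PSMG2 form one chaperone pair and PSMG3 and PSMG4 the other. PSMG1 measured 83.25, 87.28 and 92.13 CPM with the MYCN hairpin, against 112.4, 119.2 and 113.9 CPM with the control hairpin. PSMG2 measured 64.62, 64.6 and 63.63 CPM with the MYCN hairpin, against 60.85, 65.89 and 69.05 CPM with the control hairpin. The first pair thus split: PSMG1 fell by 0.40 ± 0.0458 on the log2 scale (SE, adjusted p = 3.05e-10), and PSMG2, whose groups overlapped, had a value of -0.02 ± 0.0515 (adjusted p = 0.724). PSMG3 measured 34.99, 29.55 and 30.14 CPM with the MYCN hairpin, against 42.93, 44.01 and 40.35 CPM with the control hairpin. PSMG4 measured 15.17, 15.5 and 15.07 CPM with the MYCN hairpin, against 24.09, 26.61 and 25.79 CPM with the control hairpin. Both partners of the second pair fell without overlap, PSMG3 by 0.43 ± 0.0636 (adjusted p = 1.08e-07) and PSMG4 by 0.74 ± 0.0756 (1.67-fold, adjusted p = 1.06e-11). PSMG4 (chromosome 6, 3231403 to 3303373, plus strand) shares 174 exon bases with TUBB2B and 1388 with SLC22A23, both on the opposite strand. TUBB2B measured 1.49, 2.53 and 2.5 CPM with the MYCN hairpin, against 22.71, 27.01 and 23.36 CPM with the control hairpin, and SLC22A23 fell by 0.23 on the log2 scale. PSMG4 also has estimated counts that are not whole, whether counting used strand is not stated in these sources, and the part of these neighbours in its value was not tested. PSMG1, PSMG3 and PSMG4 together had 0.0654, 0.0659 and 0.0656 counts per count of the core particle genes with the MYCN hairpin, against 0.0833, 0.083 and 0.0823 with the control hairpin.

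**Figure D3:**
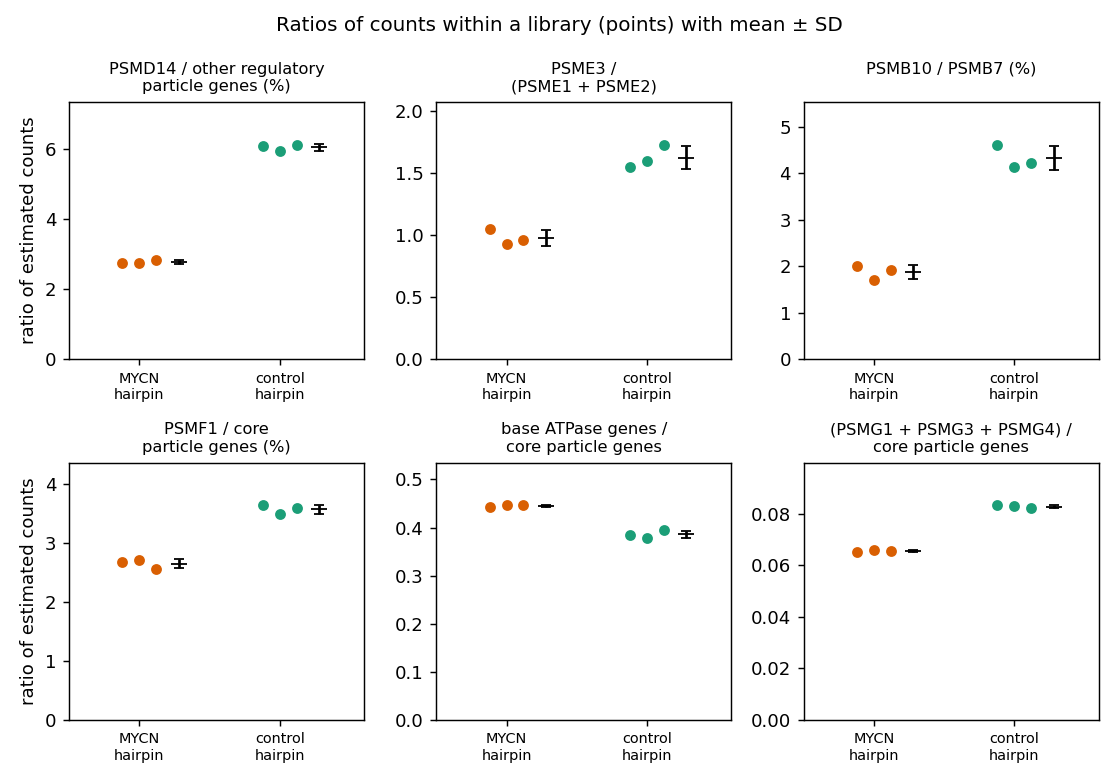
Ratios of estimated counts within each library (axes from 0), which do not depend on scaling between libraries: points are libraries, with the MYCN hairpin on the left and the control hairpin on the right of each panel, and bars are the mean ± SD of 3. The ratios of PSMD14, PSME3, PSMB10, PSMF1 and the 3 assembly genes to the genes named in each panel were lower with the MYCN hairpin, and that of the base ATPases was higher, without overlap between the groups.

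Set against the core particle within each library, the ATPases stood higher: their counts came to 0.442, 0.446 and 0.446 per count of core genes with the MYCN hairpin, against 0.385, 0.379 and 0.394 with the control hairpin. The groups were separated by more than the spread within either (0.444 ± 0.0022 with the MYCN hairpin and 0.386 ± 0.0076 with the control hairpin, SD, n = 3 each). An exact permutation test of such a ratio cannot go below 0.10 with 3 libraries in each group, so none is given. Beta over alpha genes was 0.992, 0.996 and 0.993 with the MYCN hairpin, against 1.08, 1.08 and 0.967 with the control hairpin, where control library 3 fell below the MYCN hairpin libraries. The core particle genes summed to 2039, 2007 and 2093 CPM with the MYCN hairpin, against 2152, 2288 and 2186 CPM with the control hairpin. These sums rest on TMM scaling, under which the core genes had a median log2 fold change of -0.155. With library sizes alone that median was 0.0271. Of the 14 core genes, 6 then rose and 3 fell, against 51.5% and 26.1% of all tested genes.

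A pair of symbols matched the name rule without being subunits. PSMC3IP, a recombination factor of meiosis that binds PSMC3, measured 24.46, 26.6 and 25.01 CPM with the MYCN hairpin, against 17.72, 23.21 and 22.46 CPM with the control hairpin. Control library 1 was the lowest, and the rise of 0.26 ± 0.0791 on the log2 scale (SE, adjusted p = 0.00285) came to 0.15 and did not pass the test without it (adjusted p = 0.0937). It shares 770 exon bases with MLX on the opposite strand, which rose by 0.39. PSME3IP1, a nuclear partner of PSME3, measured 47.42, 47.35 and 50.64 CPM with the MYCN hairpin, against 53.44, 53.48 and 51.09 CPM with the control hairpin. It fell by 0.12 ± 0.0539 on the log2 scale (adjusted p = 0.0411), and did not pass the test of DESeq2 (adjusted p = 0.0968).

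The 7-base sequences AGCACAA and GTGGATC had been picked out earlier from the fold changes of these same libraries, as sequences of transcripts that fell, so their presence here is a description and no independent support. Either sequence lay in the GENCODE 29 transcript of 15 of the 45 tested members (33.3%), against 38.8% of 12736 tested genes. The median log2 fold change was -0.194 in members with either sequence and -0.147 in those without. Of the 5 members with the lowest values, 3 carried one: PSMD14 had AGCACAA in its 3' untranslated region (chr2:161411654-161411683) and GTGGATC in its coding region (chr2:161371282-161371311), PSME3 had GTGGATC in its coding region (chr17:42833639-42833668), and PSMF1 had it in both its coding and 3' untranslated regions (chr20:1166349-1166378 in the 3' region). All 4 windows are on the plus strand of GRCh38, with the 7 bases in capitals.
PSMD14 3' region: aaaaaatcagtAGCACAAatatattttgat
PSMD14 coding: tggcagtggttGTGGATCccattcagagtg
PSME3 coding: cgttgctgaagGTGGATCaggaagtgaagc
PSMF1 3' region: ttcaaccatatGTGGATCctttcatttctc
PSMB10 and PSMG4, the other members among the 5 lowest, carried neither sequence. PSMC1 and PSMC2, members that rose, both carried AGCACAA in their 3' untranslated regions.

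Beyond the PSM symbols, a list of 39 genes of the ubiquitin and proteasome pathway gave 37 tested genes, of which 13 rose, 15 fell and 9 did not pass the test, with a median of -0.0805. These are 35.1% higher and 40.5% lower, near the 38.0% and 37.9% of all tested genes, and with library sizes alone 18 rose and 9 fell, against 51.5% and 26.1% of all tested genes. Of 13 subunits and partners with other symbols, 4 rose and 4 fell with TMM scaling, and 7 rose and 2 fell with library sizes alone. UCHL5, the cysteine deubiquitinase of the regulatory particle (UCH37), measured 79.38, 80.52 and 78.76 CPM with the MYCN hairpin, against 142.6, 142.2 and 151.5 CPM with the control hairpin, and fell by 0.87 ± 0.0437 on the log2 scale (SE, adjusted p = 1.81e-21). ADRM1, the ubiquitin receptor that anchors UCHL5 to the particle, measured 73.31, 70.27 and 69.49 CPM with the MYCN hairpin, against 57.77, 57.35 and 47.77 CPM with the control hairpin, and rose by 0.39 ± 0.0566 (adjusted p = 9.23e-08). Of the 3 proteasome deubiquitinases PSMD14 and UCHL5 thus fell without overlap, while USP14, the third, had a log2 fold change of 0.07 that did not pass the test (adjusted p = 0.0899) and of 0.25 that did with library sizes alone (adjusted p = 1.14e-07). POMP, the maturation factor of the core, did not pass the test either (-0.08, adjusted p = 0.13), and AKIRIN2, which carries proteasomes into the nucleus, rose by 0.55 ± 0.0758 (adjusted p = 1.98e-08).

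RPS27A, which encodes ubiquitin fused to a ribosomal protein, measured 780.6, 765.3 and 815.3 CPM with the MYCN hairpin, against 1394, 1358 and 1308 CPM with the control hairpin, and fell by 0.78 ± 0.0402 on the log2 scale (SE, adjusted p = 4.25e-21). The groups were far apart. UBB, which encodes a chain of ubiquitin units, rose by 0.14. Of the ubiquitin-activating enzymes, UBA1 fell by 0.47 and UBA6 rose by 0.22. RPS27A, UBB, UBA1 and UBA6 kept these directions with library sizes alone.

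Of 7 genes that control proteasome gene transcription, 1 rose and 4 fell with TMM scaling, against 38.0% and 37.9% of all tested genes. With library sizes alone 2 rose and 3 fell, against 51.5% and 26.1% of all tested genes. NFE2L1, the factor that raises proteasome genes when the protease is inhibited, measured 117.7 ± 4.7 CPM with the MYCN hairpin and 127.0 ± 1.15 CPM with the control hairpin (SD, n = 3 each), a log2 fold change of -0.11 (adjusted p = 0.0184) that was 0.07 with library sizes alone. MAFK, a small MAF protein that pairs with NFE2L1, measured 12.02, 11.04 and 11.59 CPM with the MYCN hairpin, against 25.47, 22.67 and 22.74 CPM with the control hairpin, and fell by 1.03 ± 0.0832 (SE, adjusted p = 1.1e-14). The more abundant small MAF gene MAFG rose by 0.19 (adjusted p = 0.000363). It measured 89.69 ± 2.01 CPM with the MYCN hairpin and 78.74 ± 1.97 CPM with the control hairpin (SD). MAFF, low at 2.23 CPM with the MYCN hairpin and 4.21 CPM with the control hairpin, fell by 0.91 (adjusted p = 4.55e-05). NGLY1, which deglycosylates NFE2L1 on its way to activation, fell by 0.54. IRF1, which activates immunoproteasome genes, measured 6.84, 7.54 and 7.63 CPM with the MYCN hairpin, against 2.56, 2.4 and 1.52 CPM with the control hairpin, and rose by 1.75 ± 0.162 (adjusted p = 6.62e-13), the opposite direction to PSMB10. TAP2 did not pass the test (-0.25, adjusted p = 0.388), and TAP1 and NLRC5 were too low to test. UBB, UBA1, UBA6, USP14, SEM1, MAFG, MAFF, NGLY1 and TAP2 were named after their values were seen.

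**Figure D4:**
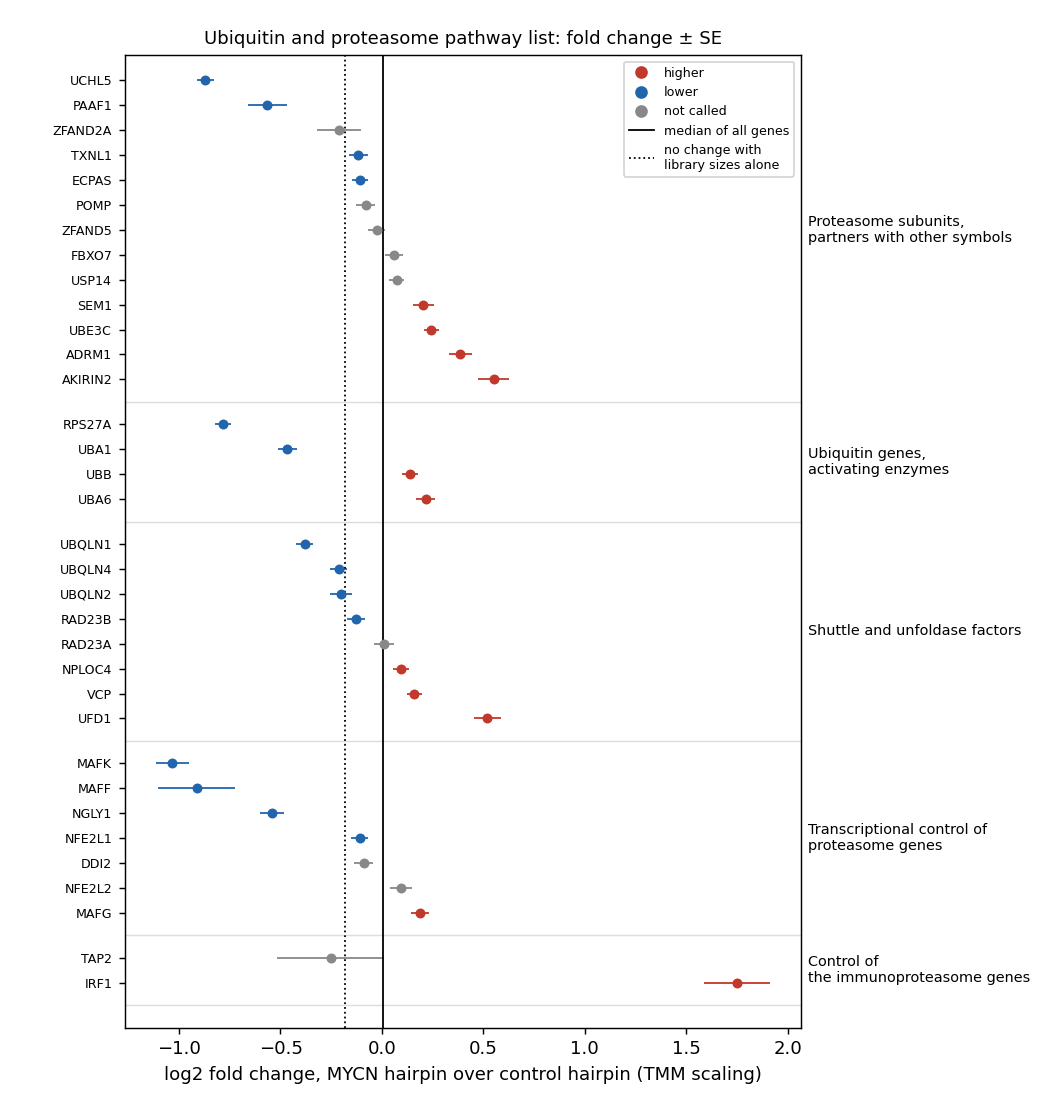
Log2 fold change (MYCN hairpin over control hairpin, TMM scaling) of 34 of the 37 tested genes of the ubiquitin and proteasome pathway list, grouped by role; points are fitted values, bars are ± 1 SE, and lines and colours are as in the plot of the proteasome genes. UCHL5, RPS27A and MAFK lie far to the left, and IRF1 lies farthest to the right at 1.75; genes between the lines change sign with library sizes alone.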

How the data were processed

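RNA of Y79 cells was extracted with TRIzol, selected for poly(A) and sequenced from both ends, per the labels' protocols. The authors deposited estimated counts per gene symbol, not scaled between libraries, and 12.5% to 12.8% of values per library are fractional. Reads were placed on GRCh38, per the submitters' processing notes. Which aligner, counter, strand setting and gene annotation were used is not given in the sources used here. Of 17035 rows, 22 without values were left out.

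Counts were rounded and tested for genes passing filterByExpr (minimum count 10) with edgeR 4.0.16 in R 4.3.3 (quasi-likelihood F-test, robust, TMM factors, Benjamini-Hochberg adjustment over all 12819 genes, threshold 0.05). The biological coefficient of variation was 3.34%. Standard errors were derived from the F statistic. The limit for a count of 0 is 3 counts and covers counting error only. The p-values measure spread between these libraries. Replicates differed beyond sampling noise (chi-square over its degrees of freedom 1.73 to 4.23). That cannot tell independent cultures from separate preparations of the same culture. Each library counted as a sample because the submitters describe them as independent replicates. Positions, overlaps and transcripts came from GENCODE 29 and start regions from RefSeq GRCh38.p14, where 41 of 47 members matched by symbol.

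The members and gene lists were chosen with earlier results of these data known. Values in every library are given for the 2 members of each role group that had the smallest p, higher and lower, and for all catalytic beta genes, activators and assembly factors. Of the pathway list, the 3 smallest p in each direction, NFE2L1, POMP and ADRM1 are named, and 3 tested genes of that list are counted but not reported here. The script was tested on simulated data in which few genes changed, as many up as down. That setting cannot tell the scalings apart. Alternatives were DESeq2 1.42.0, limma-voom (limma 3.58.1), RLE and upper quartile factors, library sizes alone, a minimum of 1 CPM in at least 3 libraries or no filter, calls limited to 1.5-fold, a replicate block and leaving out each library. Python 3.11.15 with numpy 2.4.6, pandas 2.3.3 and matplotlib 3.10.9 was used.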

Additional observations from a re-analysis of the deposited data

How the results depend on the processing

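Of the 35 members that passed the test, 16 kept their direction and passed it in every refit: PSMD14, PSMB10, PSME3, PSME4, PSMF1, PSMG1, PSMG3, PSMG4, PSMB2, PSMB3, PSMB6, PSMD4, PSMC2, PSMC3, PSMC5 and PSMD6. Library sizes alone gave 17 members higher and 12 lower, 9 pathway genes lower and a member median of 0.0308, and over all tested genes 6597 higher (51.5%), 3348 lower (26.1%) and a median of 0.186, and upper quartile factors gave a median of -0.113. Under library sizes alone these members changed sign: PSMD3 0.00035, PSMB1 0.0162, PSMA7 0.0234, PSMA3 0.0308, PSMD10 0.0388, PSMD1 0.0465, PSME3IP1 0.061, PSMD8 0.0796, PSMA4 0.0932, PSMA6 0.15, PSMD9 0.15, PSMC6 0.16, PSMG2 0.16, PSMA1 0.16 and PSMD2 0.18, and so did NFE2L1 at 0.0718 and PSMD13, which passed under neither scaling, at 0.11. Of these, PSMA1, PSMA4, PSMA6, PSMC6, PSMD2, PSMD9 and PSMG2 passed the test as rises under that scaling. PSMA5, PSMB5, PSMC4, PSMD7, PSMD11, PSMD12 and PSME1 stayed negative and did not pass the test. A 1.5-fold minimum left 0 members higher and 4 lower. Leaving out 1 library at a time gave 4 to 9 members higher, the lowest without control library 1, with 24 to 28 lower, 13 to 16 pathway genes lower and a member median of -0.168 to -0.142. The libraries were not treated as paired by replicate number. Deviations of same-numbered libraries correlated weakly, at 0.12, 0.104 and 0.026, each the highest value for its MYCN hairpin library. Library 3 of the control hairpin correlated best with MYCN hairpin library 2 (0.0401). These values do not settle whether the numbers pair the libraries weakly. With the replicate block, 7 members rose and 28 fell, the median was -0.149, and no member's call changed. Changes near 0.1 on the log2 scale (PSMA4, PSMD8, PSME3IP1, PSMC1, PSMB7) missed the threshold under several alternatives, as did PSMA3, PSMD1 and PSMC3IP without 1 library. PSMB9 and PSMD5 had too few counts to test.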
